A study of Mus musculus with 6 samples.

Results

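The collagen genes were followed in whole gastrocnemius, a calf muscle, after loss of its nerve. They were chosen by name alone, as the protein-coding rows whose symbol is Col, a type number, the letter a and a chain number, which gave 43 of 22187 gene rows. Control samples came from the left leg of normal male C57BL/6J mice aged 12 weeks. Denervated samples came from mice of the same strain, sex and age whose left sciatic nerve had lost a piece of 2 mm 2 weeks before the muscle was collected. There were 3 mice in each group and 1 bulk RNA-seq library per mouse. The labels mention no sham operation, so effects of surgery and of the lost nerve cannot be told apart.

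Collagens are proteins of 3 chains wound into a triple helix, and each gene encodes 1 chain. Fibrillar collagens form the load-bearing cables of tendon and of the connective tissue between fibres, whereas type IV collagen forms the sheet-like network of the basement membrane that wraps each muscle fibre and vessel. FACIT collagens (fibril-associated collagens with interrupted triple helices) sit on the surface of fibrils or in junction zones, and transmembrane collagens are anchored in the cell membrane with the helix outside. Collagens XIII and XXV of the transmembrane class are known in mice for roles where motor axons meet muscle fibres. By textbook class the 43 genes are 11 fibrillar, 6 basement membrane (type IV), 6 beaded filament (type VI), 9 FACIT, 4 transmembrane and 2 multiplexin genes, with 5 of other kinds. A row with the older symbol Emid2 (ENSMUSG00000004415), now named Col26a1, lies outside the naming rule; its level was 0.247 to 0.727 over the 6 libraries and it is not counted.

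Levels are given as deposited and were read as TPM times 1 factor per library. TPM divides by gene length, so levels of different genes can be compared. The number of reads is unknown, and column totals were 976929 to 1128095. A change is the denervated mean less the control mean of log2(level + 1), a scale that understates the change of low genes, and a gene is called at a limma adjusted p below 0.05. Protein-coding genes made up 30.8% to 32.7% of the column total in controls and 17.5% to 18.95% after denervation. A scaling that makes the protein-coding totals equal moved the median change of all tested genes from -0.01 to 0.61. In bulk muscle, fewer cells of a type and less RNA per cell cannot be told apart. Genes of the fibre itself marked the tissue in every library, with a summed level of 8 fibre genes of 29750 to 33630 in controls and of 10280 to 12200 after denervation.

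Of the summed collagen level, the type I chains held a smaller share in denervated muscle, and Col19a1 and the transmembrane genes larger shares. Of the 43 genes, 31 reached a level of 0.5 in at least 3 of the 6 libraries and were tested. As deposited, 5 were called higher and 16 lower, and 10 were not called. Over all 12392 tested genes, 22.9% were called higher, 24.3% lower and 47.3% in either direction. For 24 tested collagens every denervated library lay on the same side of every control, 6 of them higher and 18 lower. Over all tested genes 27.8% were so separated on the higher side, 29.7% on the lower side and 57.5% on either. The median change of the 31 genes was -0.35, beside -0.01 for all tested genes. The level filter bears on 8 of these genes. Col13a1, Col23a1 and Col25a1 reached 0.5 in denervated libraries only, and Col19a1 and Col10a1 would not have passed on their 1 and 2 controls at that level. Col4a3 and Col24a1 reached it in controls only, and Col11a1 in 3 controls and 1 denervated library. The 5 genes called higher are thus all genes that passed by their denervated libraries, and their number is a description. With no filter all 43 were fitted, and 5, the same genes, were called higher and 17 lower, against 13.1% and 12.5% of the 22156 rows fitted.

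**Figure D1:**
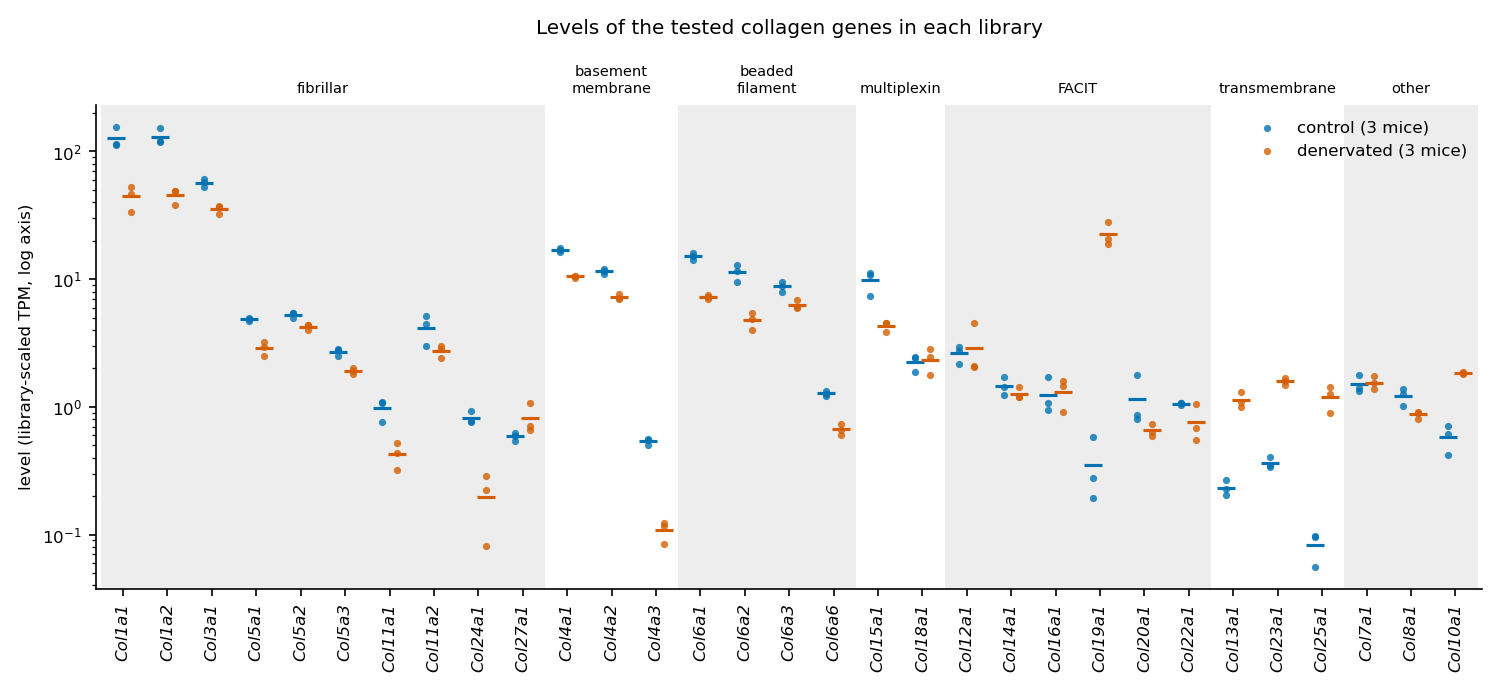
Level of each tested collagen gene (library-scaled TPM, log axis) in the 3 control and the 3 denervated libraries, by class; points are libraries and short bars group means. Col1a1 and Col1a2 lie highest in both groups, and Col19a1 lies below Col4a1 and Col4a2 in controls and above both in every denervated library.

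The balance of higher and lower calls depended on the scaling. With equal protein-coding totals 16 collagens were called higher and 4 lower, where 72.9% of all tested genes were higher and 5.39% lower. Higher under each of the 6 scalings tried, as deposited included, were Col10a1, Col13a1, Col19a1, Col23a1 and Col25a1. Lower under each of them were Col1a1, Col1a2, Col4a3 and Col24a1. The level filter was the same under each scaling. All the genes called higher as deposited passed it by their denervated libraries, and Col4a3 and Col24a1 by controls only. For these genes the agreement over scalings is a description. For the other 12 genes called lower as deposited, the call was lost or turned with equal protein-coding totals. Relative to the median of all genes, 21 of the 31 collagens lay below it as deposited and 24 with equal protein-coding totals.

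**Figure D2:**
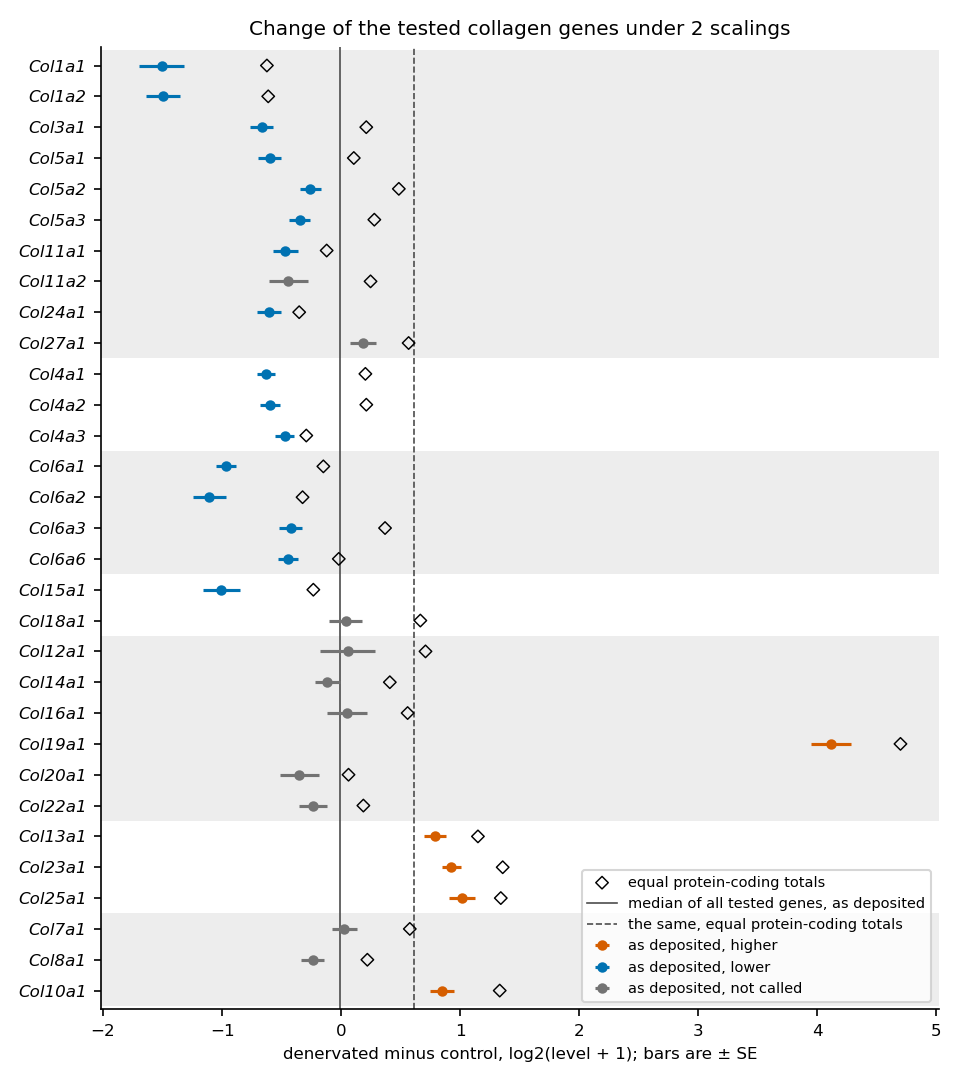
Change of each tested collagen gene on the log2(level + 1) scale: filled points with SE are values as deposited (orange called higher, blue called lower, grey not called), and open diamonds are values with equal protein-coding totals. The vertical lines mark the median of all tested genes at -0.01 and 0.61; Col1a1 and Col1a2 lie left of 0 under both scalings, whereas Col3a1, Col4a1 and Col4a2 cross it.

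The fibrillar class held the most abundant collagens. Col1a1 (ENSMUSG00000001506) and Col1a2 (ENSMUSG00000029661) encode the chains of type I collagen, the main protein of tendon and of muscle connective tissue. Col1a1 stood at 155, 113 and 114 in the controls and at 46.8, 33.7 and 52.9 after denervation. Col1a2 stood at 152, 121 and 118 and at 48.8, 38.3 and 49.1 after denervation. Every denervated library lay well below every control for both chains. The changes were -1.51 (SE 0.19, adjusted p = 0.00045) for Col1a1 and -1.50 (SE 0.14, adjusted p = 9.74e-05) for Col1a2. These ranked 292 and 295 from the largest fall among the 12392 genes, and with equal protein-coding totals they were -0.62 (adjusted p = 0.0141) and -0.61 (adjusted p = 0.00353).

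Col3a1, which encodes type III collagen of pliable tissue and new scar, fell less as deposited and turned to 0.21 (adjusted p = 0.064) with equal protein-coding totals. Its level was 60.4, 52.8 and 57.2 in controls and 37.4, 32.1 and 36.8 after denervation, with no overlap (change -0.67, SE 0.10, adjusted p = 0.000942). Type V collagen starts fibrils and sets their width. Its genes Col5a1, Col5a2 and Col5a3 had changes of -0.60, -0.26 and -0.35 (adjusted p = 0.00172, 0.0397 and 0.0138), and with equal protein-coding totals these turned to 0.11, 0.48 and 0.28 (adjusted p = 0.354, 0.00136 and 0.0215). Col5a1 went from 4.75, 4.99 and 4.89 to 2.93, 2.50 and 3.22, with no overlap. Col5a2 was at 5.46, 5.43 and 4.95 in controls and 4.01, 4.36 and 4.37 after denervation, and Col5a3 at 2.80, 2.85 and 2.50 and at 1.91, 1.82 and 2.03. The groups did not overlap for either, but the gap was small for Col5a2. The call of Col5a2 was lost without any 1 of the 6 libraries, at adjusted p from 0.0531 to 0.119.

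The rarer fibrillar genes were uneven. Col24a1, a fibrillar chain known from developing bone, stood at 0.766, 0.774 and 0.925 in controls and at 0.225, 0.082 and 0.288 after denervation (change -0.61, SE 0.10, adjusted p = 0.00168). Its control range lay wholly above the denervated one, and it passed the level filter by the controls alone. Col11a1, a chain of the cartilage collagen XI, fell from 1.10, 0.763 and 1.07 to 0.322, 0.432 and 0.524 (change -0.47, SE 0.11, adjusted p = 0.00831), a call lost with equal protein-coding totals (-0.12, adjusted p = 0.32). Its partner chain Col11a2 overlapped between groups, at 4.43, 2.98 and 5.16 in controls and 2.99, 2.86 and 2.42 after denervation (change -0.45, SE 0.16, adjusted p = 0.0578), and was called without control 2 (-0.63, adjusted p = 0.00655). Col27a1 was not called, at 0.628, 0.591 and 0.542 and at 0.655, 0.710 and 1.08, although its groups did not overlap (change 0.19, SE 0.11, adjusted p = 0.198). It was called higher with equal protein-coding totals (0.57, adjusted p = 0.00282) and without the 20 most abundant genes (0.33, adjusted p = 0.0395), and without denervated 3 the change was 0.08. Col2a1, the main cartilage collagen, stayed between 0.064 and 0.412 and was not tested. The 10 tested fibrillar genes held 8 called lower and 0 called higher as deposited, beside 24.3% and 22.9% of all tested genes. Their median of -0.53 turned to 0.16 with equal protein-coding totals. Under that scaling Col1a1, Col1a2 and Col24a1 were called lower and Col5a2, Col5a3 and Col27a1 higher, beside 5.39% and 72.9% of all tested genes.

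The 250 bases before the RefSeq start of Col1a2 and of Col3a1 (build GRCm38.p6, gene strand, 5′ to 3′) are given as examples of a type I and a type III chain, which lie with Col1a1 among the 3 most abundant collagens. The RefSeq promoter table matched 35 of the 43 symbols, Col1a1 not among them. Capitals mark CANNTG, the E-box core that myogenic factors of the MyoD family bind, searched on both strands. It occurs in 66.2% of 32851 promoter stretches of this length and in 19 of the 38 that belong to collagens.
Col1a2 at chr6:4505368-4505617 (plus strand): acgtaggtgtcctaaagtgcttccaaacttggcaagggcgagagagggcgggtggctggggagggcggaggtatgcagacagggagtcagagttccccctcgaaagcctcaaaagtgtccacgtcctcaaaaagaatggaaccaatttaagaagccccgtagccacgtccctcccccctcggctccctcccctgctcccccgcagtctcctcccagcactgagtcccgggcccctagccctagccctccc
Col3a1 at chr1:45311288-45311537 (plus strand): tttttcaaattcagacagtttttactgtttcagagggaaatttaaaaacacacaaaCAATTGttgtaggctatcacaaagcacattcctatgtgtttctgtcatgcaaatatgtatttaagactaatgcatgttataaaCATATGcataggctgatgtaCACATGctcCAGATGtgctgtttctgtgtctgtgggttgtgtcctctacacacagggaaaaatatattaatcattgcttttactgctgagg
The Col1a2 stretch has no match to CANNTG and 1 to CCAAT, a promoter element found in 33.8% of all stretches on either strand. The Col3a1 stretch has 4 matches to CANNTG and 1 to TATAAA, which 12.4% of all stretches hold. A match describes letters and shows no binding.

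Basement membrane collagen fell as a pair of linked genes as deposited and turned with equal protein-coding totals. Col4a1 and Col4a2 encode the chains of the type IV network found in nearly every basement membrane. Col4a1 stood at 16.2, 17.6 and 16.8 in controls and at 10.6, 10.3 and 10.7 after denervation (change -0.63, SE 0.08, adjusted p = 0.000429). Col4a2 stood at 11.5, 12.0 and 11.0 and at 7.05, 7.09 and 7.66 (change -0.60, SE 0.08, adjusted p = 0.000749). The replicates lay close together and the groups apart, while equal protein-coding totals gave 0.20 and 0.21 (adjusted p = 0.0479 and 0.0491). Both genes lie head to head on mouse chromosome 8 on opposite strands, and their 300-base RefSeq promoter windows share 78 bases.

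The minor type IV chains were scarce. Col4a3, a chain of the kidney and lung network, stood at 0.553, 0.505 and 0.564 in controls and at 0.117, 0.124 and 0.085 after denervation (change -0.47, SE 0.08, adjusted p = 0.00176). No control came near a denervated value, but the gene passed the level filter by its controls alone, and 563 of its 9967 annotated exon bases are shared with a non-coding gene on the other strand. Its neighbour Col4a4 was at 0.282 to 0.372 and at 0.096 to 0.147, below the filter. Col4a5 was at 0.204 to 0.305 in controls, and of the denervated libraries 1 stood at 1.08 and the others at 0.247 and 0.353. Col4a6 did not exceed 0.045 in any library.

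Type VI collagen forms beaded filaments that tie the basement membrane to the matrix, and its loss causes muscular dystrophy in humans. Col6a1 fell from 16.1, 15.2 and 14.1 to 7.25, 7.06 and 7.47 (change -0.97, SE 0.09, adjusted p = 7.79e-05), and Col6a2 from 13.002, 11.7 and 9.53 to 4.88, 3.97 and 5.41 (change -1.11, SE 0.14, adjusted p = 0.000463). Col6a3 stood at 9.43, 8.89 and 8.01 in controls and at 6.05, 5.96 and 6.86 after denervation (change -0.42, SE 0.10, adjusted p = 0.00879). None of the 3 showed overlap, and Col6a1 and Col6a2, which are neighbours on chromosome 10, changed more than Col6a3 as deposited. With equal protein-coding totals Col6a1 and Col6a2 stood at -0.15 and -0.32 (adjusted p = 0.141 and 0.062) and Col6a3 turned to 0.37 (adjusted p = 0.0086). Col6a6 had 1.21, 1.27 and 1.34 in controls and 0.606, 0.731 and 0.662 after denervation (change -0.45, SE 0.08, adjusted p = 0.00335), and with equal protein-coding totals -0.02 (adjusted p = 0.84). Col6a4 and Col6a5 stayed at or below 0.103.

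The multiplexins, collagens of the basement membrane zone, differed from each other. Col15a1 fell from 11.2, 10.8 and 7.39 to 3.85, 4.52 and 4.57 without overlap (change -1.01, SE 0.15, adjusted p = 0.00123), whereas Col18a1, the source of endostatin, lay at 1.88 to 2.45 and 1.77 to 2.83 (change 0.04, adjusted p = 0.853). The lowest control of Col15a1 was control 3. With equal protein-coding totals the changes were -0.23 (adjusted p = 0.194) and 0.67 (adjusted p = 0.00365).

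Among FACIT collagens 1 gene stood apart. Col19a1 (ENSMUSG00000026141), which encodes collagen XIX, a minor component of basement membrane zones that is known from embryonic muscle, stood at 0.585, 0.279 and 0.192 in controls. In the denervated mice it stood at 18.96, 28.3 and 20.5, far above the highest control in every library. The change was 4.11 (SE 0.17, adjusted p = 2.48e-06), rank 33 from the largest rise among 12392 genes, and it lay between 4.11 and 4.70 over the 6 scalings. Its control mean of 0.352 rose 64.1-fold to 22.6, which made it the fourth most abundant collagen of denervated muscle, after Col1a2, Col1a1 and Col3a1. It supplied 2.21% to 6.24% of the summed FACIT level in controls and 69.4% to 82.5% after denervation. Its chromosomal neighbour Col9a1, a cartilage FACIT gene, was at 0.086 to 0.245 in controls and at 0 to 0.021 after denervation.

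The other FACIT genes were not called as deposited. Equal protein-coding totals changed this: Col12a1 (0.71, adjusted p = 0.026), Col14a1 (0.41, adjusted p = 0.00743) and Col16a1 (0.56, adjusted p = 0.0152) were called higher, where the median change of all genes was 0.61. Col12a1, known from tendon and junction sites, was at 2.97, 2.17 and 2.75 in controls and at 2.06, 2.10 and 4.56 after denervation (change 0.05, SE 0.23, adjusted p = 0.869). The highest value was denervated 3 alone, and without that library the change was -0.23. Col22a1, a marker of the junction of muscle with tendon, had 1.03 to 1.08 in controls and 0.547, 0.690 and 1.05 in the denervated libraries, where the highest again was denervated 3. Its change of -0.24 (SE 0.12, adjusted p = 0.132) was called without that library, at -0.35 (adjusted p = 0.0319). Col14a1, a fibril-surface collagen, was at 1.72, 1.25 and 1.43 and at 1.20, 1.43 and 1.19 (change -0.12, SE 0.11, adjusted p = 0.401). Col16a1 was at 1.71, 0.945 and 1.07 and at 1.60, 0.906 and 1.45 (change 0.05, SE 0.17, adjusted p = 0.824). Both overlapped between groups. Col20a1 was at 0.872, 0.806 and 1.78 and at 0.596, 0.638 and 0.737, without overlap (change -0.35, SE 0.17, adjusted p = 0.121). Control 3 was the highest by far, and without it the change was -0.15. Col9a2 and Col9a3 stayed at or below 0.206. The median of the 6 tested FACIT genes was -0.03 and changed sign with the scaling and when single libraries were left out.

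The transmembrane class rose in the 3 of its 4 genes that were tested, and as they passed the level filter only by their denervated libraries their count is a description. Col25a1 (ENSMUSG00000058897), whose product in mouse muscle is needed for motor axons to enter, went from 0.096, 0.097 and 0.056 to 1.27, 0.896 and 1.43. Col13a1 (ENSMUSG00000058806), a collagen of the neuromuscular junction in mice, went from 0.266, 0.226 and 0.203 to 0.997, 1.09 and 1.304. Col23a1 (ENSMUSG00000063564) went from 0.351, 0.408 and 0.338 to 1.495, 1.60 and 1.70. In each gene the lowest denervated library lay well above the highest control. The changes were 1.014 (SE 0.11, adjusted p = 0.000217) for Col25a1, 0.79 (SE 0.09, adjusted p = 0.00029) for Col13a1 and 0.93 (SE 0.08, adjusted p = 8.47e-05) for Col23a1. As ratios of group means they were 14.4-fold, 4.88-fold and 4.37-fold, since the added pseudocount of 1 shrinks changes at such low levels. Col17a1, the hemidesmosome collagen of skin, had 0.045 to 0.085 in controls and 0.098 to 0.247 after denervation, below the filter.

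The bases before the RefSeq starts of the FACIT gene and the transmembrane genes that rose are given in the same way, 250 for each, with CANNTG in capitals.
Col19a1 at chr1:24587438-24587687 (minus strand): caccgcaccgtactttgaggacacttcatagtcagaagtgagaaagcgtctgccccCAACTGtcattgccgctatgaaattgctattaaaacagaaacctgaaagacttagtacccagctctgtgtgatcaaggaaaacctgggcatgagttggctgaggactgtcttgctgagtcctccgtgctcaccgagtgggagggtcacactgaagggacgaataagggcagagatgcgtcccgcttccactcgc
Col25a1 at chr3:130180595-130180844 (plus strand): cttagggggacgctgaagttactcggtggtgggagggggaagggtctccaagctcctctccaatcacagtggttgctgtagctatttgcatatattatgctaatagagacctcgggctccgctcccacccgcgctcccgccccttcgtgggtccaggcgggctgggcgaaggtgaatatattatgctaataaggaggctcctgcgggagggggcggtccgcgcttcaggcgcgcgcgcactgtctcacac
Col13a1 at chr10:61979109-61979358 (minus strand): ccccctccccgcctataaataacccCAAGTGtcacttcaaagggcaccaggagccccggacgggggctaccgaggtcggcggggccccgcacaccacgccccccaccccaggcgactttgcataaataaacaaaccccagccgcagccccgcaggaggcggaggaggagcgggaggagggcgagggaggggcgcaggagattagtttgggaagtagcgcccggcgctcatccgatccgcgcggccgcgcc
Col23a1 at chr11:51289670-51289919 (plus strand): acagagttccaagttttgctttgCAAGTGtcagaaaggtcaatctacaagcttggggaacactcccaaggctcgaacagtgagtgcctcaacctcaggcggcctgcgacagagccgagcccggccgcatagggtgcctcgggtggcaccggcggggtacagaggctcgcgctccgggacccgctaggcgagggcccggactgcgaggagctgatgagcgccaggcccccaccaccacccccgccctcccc
Of these 4 stretches 3 hold 1 CANNTG each and that of Col25a1 holds none. None of the 4 holds CAGCTG, the form of CANNTG present in 13% of all stretches. The Col13a1 stretch has 1 match to TATAAA and the Col25a1 stretch 1 to CCAAT. A missing match says only that the letters are absent from this window.

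Of the remaining genes Col10a1, a network-forming collagen best known from growth plate cartilage, rose from 0.617, 0.419 and 0.711 to 1.86, 1.87 and 1.80 (change 0.85, SE 0.10, adjusted p = 0.000308), with no overlap. It lies inside Nt5dc1 on the opposite strand and shares 18 of its 3130 exon bases with it, and Nt5dc1 was not called. Col7a1, which forms anchoring fibrils, was at 1.34 to 1.77 in controls and 1.38 to 1.74 after denervation, with a change of 0.03 (adjusted p = 0.855), and was called higher with equal protein-coding totals (0.58, adjusted p = 0.00174). Col8a1, a vessel wall collagen, had -0.24 (adjusted p = 0.0765) with no overlap. Col8a1 was called without control 1 (-0.31, adjusted p = 0.0428). Col8a2 and Col28a1 were below the filter, at 0.085 to 0.556.

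Shares of the collagen sum within a library do not depend on library scaling. The summed collagen level was 482, 398 and 395 in controls and 224, 202 and 239 after denervation, with no overlap. As a share of the protein-coding total it overlapped between groups, at 0.138%, 0.117% and 0.114% against 0.121%, 0.110% and 0.128%. Leaving out the transcripts of the mitochondrial genome it did not overlap, at 0.177% to 0.221% in controls and 0.133% to 0.1503% after denervation. Type I chains made up 63.5%, 58.8% and 58.8% of the collagen sum in controls and 42.7%, 35.6% and 42.7% after denervation. Fibrillar collagens together went from 78.5% ± 1.70 (SD, n = 3) to 62.4% ± 3.89 (SD, n = 3), and with Col19a1 taken out of the sum from 78.5% ± 1.72 to 69.6% ± 1.98. The smaller fibrillar share lay in the type I chains. Col3a1 held 12.5%, 13.3% and 14.5% in controls and a larger 16.7%, 15.9% and 15.4% after denervation, and the other fibrillar genes held 4.15% to 5.12% and 5.86% to 6.51%, both without overlap. Col19a1 alone went from 0.0487% to 0.121% in controls to 8.46%, 14.0% and 8.58%, and the transmembrane genes from 0.163% to 0.198% in controls to 1.72% to 1.94%. Type IV genes held 6.01% to 7.69% and 7.91% to 8.84%, and type VI genes overlapped at 8.26% to 9.33% and 8.42% to 8.81%. Only the type VI and multiplexin shares overlapped between groups among the 7 classes.

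**Figure D3:**
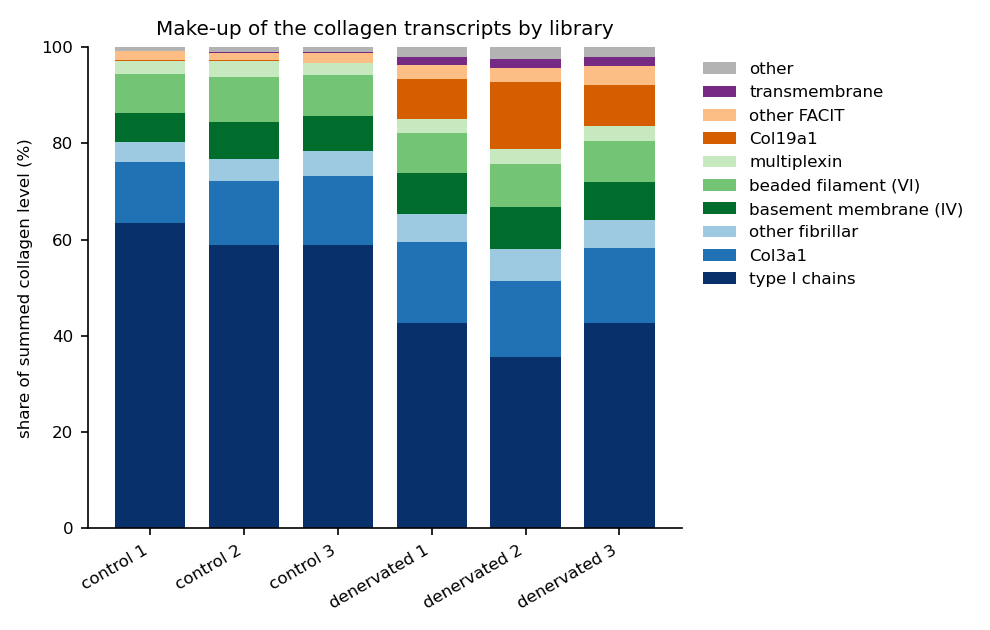
Share of the summed collagen level (percent) taken by each class in each of the 6 libraries, with type I chains, Col3a1 and Col19a1 drawn apart from the rest of their class. Type I chains shrink from 58.8% or more in every control to 42.7% or less in every denervated library, and Col19a1 widens from a barely visible band to 8.46% or more.

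Ratios within a library were compared for chains of 1 molecule and for chains of different molecules. The ratio of Col1a1 to Col1a2 was 0.977 ± 0.040 (SD, n = 3) in controls and 0.971 ± 0.0996 after denervation, and that of Col4a1 to Col4a2 was 1.47 ± 0.058 and 1.45 ± 0.055. Both overlapped between groups, with log2 differences of -0.01 and -0.02 (two-sided exact permutation p = 0.9 and 0.7). The ratio of Col3a1 to Col1a1 was 0.391, 0.466 and 0.501 in controls and 0.799, 0.955 and 0.697 after denervation, without overlap (log2 difference 0.85). Type IV and type V relative to type I lay higher in every denervated library, with log2 differences of 0.85 for Col4a1 to Col1a1 and 0.76 for Col5a1 to Col1a1. These 3 ratios share Col1a1 as denominator, so they are not separate observations. Col5a3 to Col5a1 differed by 0.26 and Col15a1 to Col18a1 by -1.21, also without overlap. Each of these 5 had p = 0.1 in a two-sided exact permutation test, the smallest that 3 mice against 3 allow, and 0.18 after adjustment over the 9 pairs compared. Col6a1 to Col6a2 and Col11a1 to Col1a1 overlapped, with differences of 0.20 and 0.32 (exact permutation p = 0.2 and 0.3). Without denervated 2 these were 0.10 and 0.11, and Col11a1 to Col1a1 was 0.56 without denervated 1.

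**Figure D4:**
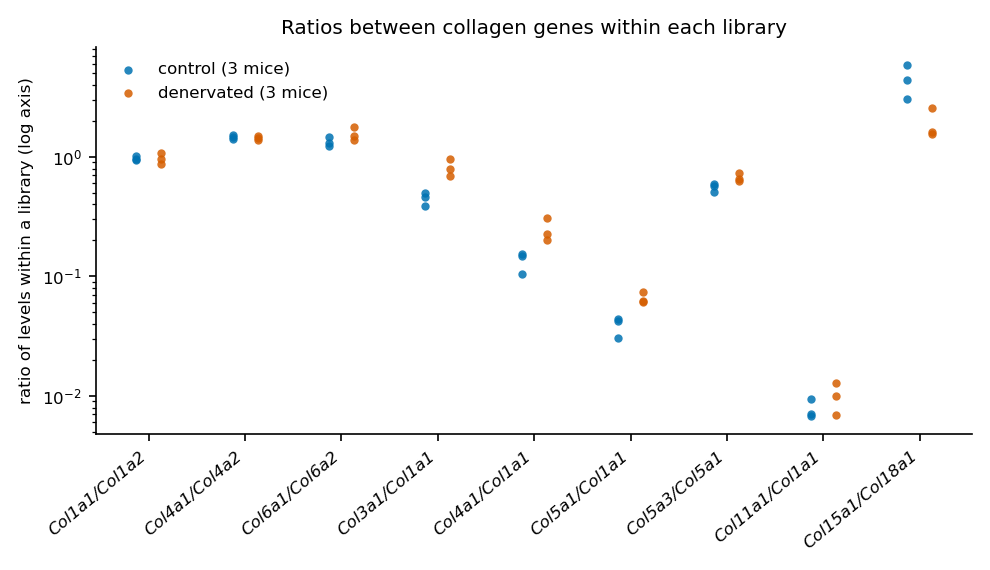
Ratio of the levels of 9 pairs of collagen genes within each library (log axis), with 3 control and 3 denervated points per pair. The chain pairs Col1a1/Col1a2 and Col4a1/Col4a2 overlap between groups, whereas Col3a1/Col1a1, Col4a1/Col1a1 and Col5a1/Col1a1 lie higher in all 3 denervated libraries and Col15a1/Col18a1 lies lower.

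Genes that build, cross-link, bind and degrade collagen were followed as 4 lists, whose counts are read beside the 22.9% higher and 24.3% lower of all tested genes. With so few genes a list, counts near these shares are no result about the list. Of 18 tested genes of collagen modification and folding, 1 was called higher and 6 lower, with 11 not called and a median change of -0.14. Sparc, a collagen-binding chaperone, fell from 138 ± 18 to 57.1 ± 9.54 (SD, n = 3 each; change -1.27, adjusted p = 0.000304), lower under each of the 6 scalings. P4ha2, a prolyl hydroxylase subunit, had -0.91 (adjusted p = 0.00181) and Ctage5, a gene of procollagen export, -0.64 (adjusted p = 0.000322). With equal protein-coding totals P4ha2 was not called (-0.17, adjusted p = 0.327) and Ctage5 turned to 0.22 (adjusted p = 0.027). Plod2, which hydroxylates telopeptide lysines and so sets the kind of cross-link, was the single higher member at 0.721 ± 0.0953 and 1.43 ± 0.25 (change 0.50, adjusted p = 0.00609), higher under each scaling.

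Of 8 tested genes of procollagen processing and cross-linking, 2 were higher, 3 lower and 3 not called, with a median of -0.17. Lox, which oxidizes lysines for cross-links between collagen or elastin chains, went from 3.14, 2.91 and 2.21 to 9.08, 14.2 and 11.5. Lox and its relative Loxl1 had changes of 1.74 (adjusted p = 0.000117) and 1.22 (adjusted p = 0.000624), higher under each scaling, with Loxl1 at 1.66, 2.90 and 2.41 in controls and 6.23, 5.95 and 7.95 after denervation. Loxl2 fell by 0.83 on the log2 scale (adjusted p = 0.00134), and the enhancers of procollagen cleavage Pcolce2 and Pcolce had -0.42 and -0.29 (adjusted p = 0.0303 and 0.0438). With equal protein-coding totals Loxl2 was at -0.21 and Pcolce2 at -0.02, neither called, and Pcolce turned to 0.55, as it did without the 20 most abundant genes (0.04). Collagen receptors held 2 higher and 1 lower of 6 tested, with a median of -0.13. Ddr1, a receptor kinase for collagen, rose from 4.62 ± 0.181 to 8.71 ± 1.19 (change 0.78, adjusted p = 0.000708) and Itgb1, the shared beta chain of collagen-binding integrins, from 28.2 ± 0.224 to 37.6 ± 5.51 (change 0.39, adjusted p = 0.0215). Itga1, the alpha chain of a receptor for type IV collagen, had -0.69 (adjusted p = 0.000556), and -0.06 with equal protein-coding totals. Among 4 tested collagen-degrading enzymes (median 0.19) Mmp14, which cleaves fibrillar collagen at the cell surface, and Mmp2, a gelatinase, were higher under each scaling, at 0.89 and 0.31 as deposited (adjusted p = 0.000249 and 0.0193). Ctsk and Fap were not called. Mmp8, Mmp9 and Mmp13 were below the level filter and not tested. In each of these every denervated library lay above every control, as in 27.8% of all tested genes. Levels were low and depth is unknown, so this is a description. Mmp8 did not exceed 0.043 in controls and 0.504 after denervation, and Mmp9 did not exceed 0.106 and 0.402. Mmp13 was at 0 in all controls and at 0.107, 0.535 and 1.197 after denervation. Under equal protein-coding totals, where 72.9% of all tested genes were higher, the lists in the order given held 13 of 18, 5 of 8, 4 of 6 and 3 of 4 tested genes higher and 1, 0, 0 and 0 lower.

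Cell type markers moved beside the collagens, and their part in these changes was not tested. Of all tested genes 22.9% were called higher and 24.3% lower as deposited. With equal protein-coding totals 72.9% were called higher and 5.39% lower. Marker counts near these shares are no result about a list. Of 12 fibro-adipogenic progenitor markers, the main fibroblast-like cells of muscle, 8 were called lower and 0 higher as deposited, and 0 lower and 6 higher with equal protein-coding totals, with a deposited summed level of 378 to 402 in controls and 261 to 298 after denervation. Tendon cell markers had 5 lower and 1 higher of 7 tested, with sums of 70.9 to 95.0 and 52.5 to 59.1. Control 1 had the highest sum. The 1 higher marker was Scx, with group means of 0.561 in controls and 9.11 after denervation (change 2.68, adjusted p = 1.52e-05). Endothelial markers had 10 lower and 1 higher of 12 (sums 114 to 126 and 68.0 to 70.6), and pericyte and smooth muscle markers 8 lower of 9 tested (sums 151 to 161 and 72.3 to 78.4). Schwann cell markers had 3 lower and 2 higher of 7 tested (sums 22.6 to 26.1 and 11.2 to 12.3). Macrophage markers had 8 of 11 higher (sums 25.2 to 32.9 and 57.5 to 66.9) and satellite cell markers 3 of 5 tested (sums 18.3 to 19.8 and 37.6 to 45.7). The satellite cell sum rested largely on Sdc4, with group means of 5.575 in controls and 23.71 after denervation. Vcam1 and Itga7 were not called, and Pax7 overlapped between groups and was not tested. Equal protein-coding totals turned the sums of 3 lists, to 288 to 315 in controls and 371 to 426 after denervation for progenitors, 54.6 to 72.3 and 75.7 to 84.6 for tendon cells, and 86.8 to 97.2 and 98.05 to 100.2 for endothelial cells. Pericyte and smooth muscle sums stayed lower after denervation under that scaling (115 to 126 and 103 to 113), Schwann cell sums overlapped, and macrophage and satellite cell sums stayed higher. Higher and lower calls under that scaling were 3 and 2 of 7 tested for tendon cells and 2 and 3 of 12 for endothelial cells. For pericytes and smooth muscle they were 3 and 3 of 9, and for Schwann cells 4 and 3 of 7. For macrophages they were 11 and 0 of 11, and for satellite cells 5 and 0 of 5. No marker of these lists was at 0 in all 6 libraries.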

How the data were processed

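Whole left gastrocnemius of 3 control and 3 denervated mice was profiled by mRNA-seq with paired reads of 50 bases, per the labels' protocols. The submitters' processing notes name the build NCBIM37 and the tools RSEM 1.3.0, Bowtie2 2.2.9 and edgeR 3.12.1, without saying what each was used for. Annotation release, strandedness and filters are not stated. The authors deposited an expression signal for each gene whose unit has no name in the file. In each column 100% of values above 0 and below 100 lay within 0.00055 of a multiple of 0.01 times 1 factor, between 0.977 and 1.13, so the signal was read as TPM times a library factor. It keeps no read number, so no counting interval was computed. Values were used as deposited on log2(level + 1). The 12392 genes that reached 0.5 in 3 or more of the 6 libraries entered limma 3.58.1 under R 4.3.3 (intensity trend, two-sided, Benjamini-Hochberg over all tested genes, 4 residual degrees of freedom), after the procedure was tested on simulated data. Replicates are separate mice. Ratios within a library were tested by exact permutation in scipy 1.17.1.

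The members, classes, gene lists and tests were chosen with earlier results of these data known. Every member was accounted for. All tested members were named, and in each list of partner genes up to 3 called genes in each direction. Of these lists Mia3 was not matched. GENCODE M21 and RefSeq tables (GRCm38) gave overlaps, neighbours and promoter sequences only, and 13 of 43 members share annotated exon bases with another gene. Without a stated strand, reads there cannot be assigned. Alternatives were 5 other scalings, of which equal column totals (TPM without the library factor) was added after seeing the data, as was the use of equal protein-coding totals for the list counts and sums, a replicate block, leaving out each library, a pseudocount of 0.1, dropping the level filter, a filter on a mean level of 1, and limma with robust variances or with no trend.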

Additional observations from a re-analysis of the deposited data

How the results depend on the processing

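The scaling of the libraries limits these results most. Equal protein-coding totals gave 16 collagens higher and 4 lower and 9036 and 668 of all tested genes, and totals without the 20 most abundant genes gave 4966 and 1614 of all genes. Under these scalings, in that order, class medians were 0.16 and -0.32 (fibrillar), 0.20 and -0.31 (type IV), 0.48 and 0.17 (FACIT) and 1.34 and 1.09 (transmembrane). Each scaling also moved the median of all tested genes, to 0.61 and 0.23. The classes did not all move by this amount, as on log2(level + 1) a scaling moves low genes less than abundant ones. With equal protein-coding totals Col1a1 went from -1.51 to -0.62 and Col25a1 from 1.014 to 1.34. Differences from the median of all genes therefore depend in part on level and are a description. Less the median of all genes, the class medians as deposited were -0.52, -0.59, -0.02 and 0.94 in the same order of classes. With equal protein-coding totals these differences were -0.45, -0.41, -0.13 and 0.73. Without the library factor the type IV median was -0.52 and the FACIT median 0.0172. A pseudocount of 0.1 gave medians of -0.71 (fibrillar), -0.67 (type IV) and 1.89 (transmembrane). With no filter the type IV median was -0.36 and the transmembrane median, over all 4 genes, 0.86. With a mean level of 1 or more, which tests fewer genes, 2 collagens were higher and the FACIT median was 0.0524. No transmembrane gene was tested at that level. Leaving out 1 library moved the FACIT median between -0.16 and 0.0394, the log2 ratio of Col1a1 to Col1a2 between -0.0882 and 0.0586, that of Col4a1 to Col4a2 between -0.0440 and 0.0131, that of Col6a1 to Col6a2 between 0.1003 and 0.282, and that of Col11a1 to Col1a1 between 0.110 and 0.559; the cause was not tested. The fibrillar share fell by 13.8 to 17.5 percentage points when any 1 library was left out.

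With equal protein-coding totals the sign turned for Col3a1 (0.21), Col4a1 (0.20), Col4a2 (0.21), Col5a1 (0.11), Col5a2 (0.48), Col5a3 (0.28), Col6a3 (0.37), Col8a1 (0.22), Col11a2 (0.25), Col14a1 (0.41), Col20a1 (0.0620), Col22a1 (0.19), Ctage5 (0.22) and Pcolce (0.55). With totals without the 20 most abundant genes it turned for Col5a2 (0.0304), Col14a1 (0.0877) and Pcolce (0.0424), and with quantile normalization for Col18a1 (-0.00823) and Col7a1 (-0.0222). Leaving out 1 library moved 4 genes that were not called across 0: Col12a1 between -0.231 and 0.200, Col16a1 between -0.0439 and 0.196, Col18a1 between -0.0663 and 0.167, and Col7a1 between -0.0255 and 0.101. Same-numbered mice did not deviate together (correlations of -0.10, -0.01 and 0.02 across genes). With 3 mice per group such values cannot exclude a pairing by number, which the labels do not state. A replicate block gave 5 collagens higher and 15 lower and 2636 and 2772 of all genes; the calls of Col5a2 (adjusted p = 0.085) and Pcolce (adjusted p = 0.0918) were lost, and not every mouse correlated best with its own number. Depth is unknown, so levels near 0 carry no error of counting.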
